A study of Mus musculus with 32 samples.

Results

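IGF2BP3 eCLIP of Lin- cells was compared with its size-matched inputs, to ask which transcripts carry peaks after immunoprecipitation that the starting RNA does not give at the same RNA level. The comparison uses 12 of the 32 libraries of the study, all mouse: 6 eCLIP libraries, of which 1 to 3 are labelled biological and 4 to 6 technical replicates, and the 6 inputs that carry the same numbers. Members were every peak of these libraries before the removal of peaks that overlap input peaks, and each peak was assigned to the gene ID that the authors' peak caller, CLIPper, wrote into its name. Lin- cells are lineage-depleted bone marrow cells that were transduced with a retrovirus carrying FLAG-tagged MLL-Af4, selected with G418 for 7 days and left without further treatment. The study's methods give C57BL/6J as the strain, and the genotype, WT/MLL-Af4, comes from the paper rather than from the labels. All 12 libraries therefore share the fusion oncogene and a wild-type Igf2bp3, and no eCLIP library analysed here came from IGF2BP3-deleted cells. The inputs were 2% of each sample, and the supplement places their removal after the immunoprecipitation step.

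IGF2BP3 is an oncofetal RNA-binding protein with RRM and KH domains that is best known for binding the 3′ UTRs and coding exons of mRNAs in the cytoplasm and for keeping these mRNAs stable. KH domains of this family prefer CA-rich RNA. In eCLIP, protein and RNA are crosslinked with ultraviolet light, the RNA is trimmed, the protein is pulled down with an antibody, and the RNA from the matching size range of a gel is sequenced. The size-matched input passes through the same gel and library steps, so it shows which RNA is recovered because it is abundant, structured or bound by any protein of that size. An intron ends at its 3′ splice site with a stretch rich in C and U followed by AG, where the splicing machinery assembles.

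The 3′ ends of introns are shown first because they held many eCLIP peaks and almost no input peaks. Each line gives the last 25 bases of an intron and the first 5 of the exon, on the transcript strand in DNA letters of mm10 (RefSeq GRCm38.p6), with the AG that closes the intron in capitals. All 3 biological eCLIP libraries had a peak midpoint within 40 nt upstream of each of these sites and no input had a peak on the gene.
Hnrnpu, chr1:178331950-178331979, minus strand: atggcgcttctttttctcactgtAGgttgt
Ddx5, chr11:106785048-106785077, minus strand: gtaacttgcttccttaaatcttcAGcctga
Arid1a, chr4:133694066-133694095, minus strand: ttgtttcctccccacctctccccAGgaggc
Brd2, chr17:34117207-34117236, minus strand: ctaattctgcttcccctttttgcAGgctcc
Ptbp1, chr10:79859577-79859606, plus strand: agagttcacacatcctctcttgcAGatctt
Actb, chr5:142905472-142905501, minus strand: ctaagaaggctgttcccttccacAGggtgt
Gapdh, chr6:125162704-125162733, minus strand: cactcattgcccccgtgttttctAGaccac
Cd69, chr6:129270184-129270213, minus strand: agacaaatgtcctttctgtccacAGtgggc
Of the 18 gained genes named below, peaks shared by all 3 biological libraries held the CA-rich 6-mers ACACAC or CACACA only on Hmgb1 and Ptbp1. The next lines give 30 bases around the middle of these peaks with the first run of alternating C and A in capitals, and, for contrast, the strongest peak of eCLIP replicate 1 on Cdk6, a gene with peaks in 5 of 6 inputs.
Hmgb1, chr5:149051916-149051945, minus strand, intron: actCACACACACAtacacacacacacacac
Ptbp1, chr10:79859566-79859595, plus strand, intron: cggccccagctagagttCACACAtcctctc
Cdk6, chr5:3480350-3480379, plus strand, intron: ACACACAtacacacacccacacacacacac
The last windows are at the strongest peaks of inputs 1 to 3 on genes with the most input peaks. By annotation, the Tex14 window lies on a small nucleolar RNA (snoRNA) gene, the Gm42418 window in a lincRNA exon and the Cdk8 window in an intron. None holds either 6-mer. Which RNA gave the reads at these places was not tested.
Gm42418, chr17:39848709-39848738, plus strand: cgggtacctagctgtcgcgttccggcgcgg
Tex14, chr11:87462344-87462373, plus strand: gtgtagagcacccgaaaccacgaggacgag
Cdk8, chr5:146261256-146261285, plus strand: cgttaagaggtaaactggtggggtccgcgc

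Every eCLIP library had more peaks than every input. CLIPper gave 9111, 11606 and 9911 peaks in eCLIP replicates 1 to 3 and 5455, 7871 and 5550 in replicates 4 to 6, against 1808, 1379 and 1332 in inputs 1 to 3 and 1215, 217 and 1047 in inputs 4 to 6. The mean was 10209 ± 1274 for eCLIP and 1506 ± 262 for input (SD, n = 3), a ratio of 6.78, with p = 0.1 in a two-sided exact permutation test, the smallest value that 3 against 3 libraries allow. The labels do not say whether the biological replicates came from separate cultures or animals, so p-values measure the spread between these libraries, which may be technical. Read depth is unknown, and the file headers show that reads were deduplicated and peaks called with different settings in eCLIP and input, so assay and settings cannot be told apart. Input 5, with 217 peaks, stands below the other inputs. Genes with a peak numbered 4284, 5385 and 4869 in eCLIP replicates 1 to 3 and 1376, 1085 and 1005 in their inputs.

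**Figure D1:**
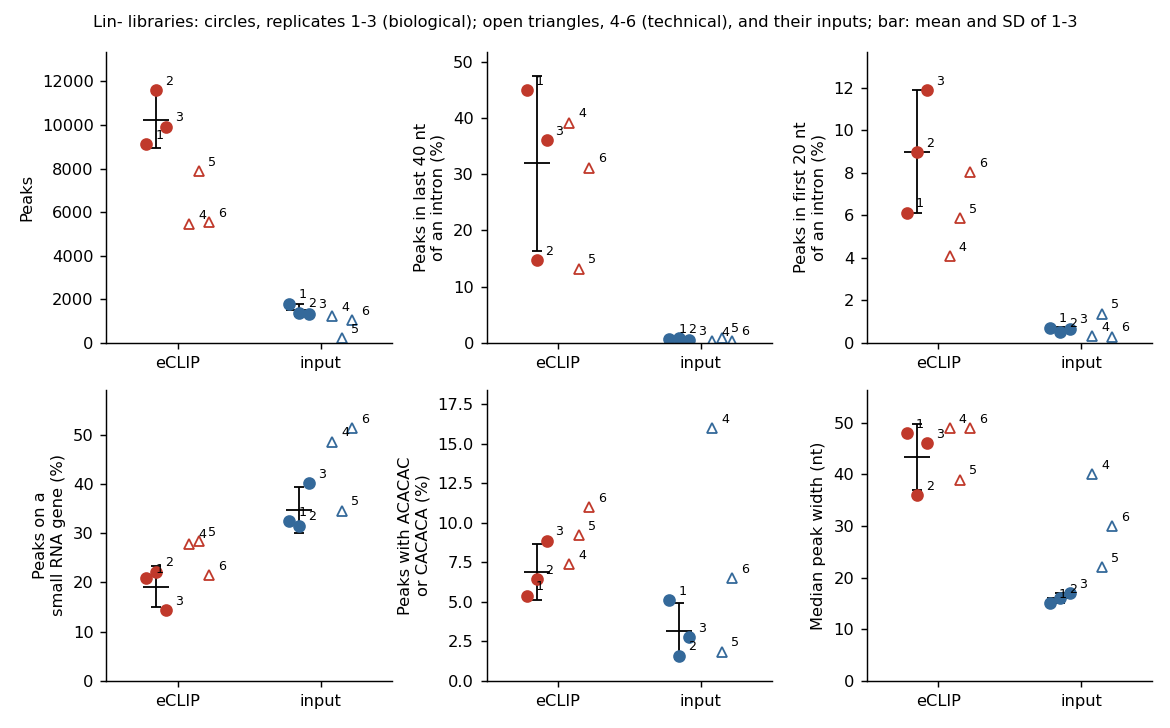
Measures in each Lin- library. The y axes give the number of peaks, shares of peaks in percent or the median peak width in nt, circles are replicates 1 to 3, open triangles are replicates 4 to 6, and black bars give mean and SD of replicates 1 to 3. Peaks in the last 40 nt of an intron make up 13.2 to 45% of the eCLIP libraries and at most 0.922% of the inputs, while input 4 stands above every library for the 6-mer share.

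By their midpoints, the eCLIP peaks were concentrated at the ends of introns, and the input peaks were not. The midpoint lay in the last 40 nt of an annotated intron for 45%, 14.7% and 36.1% of the peaks of eCLIP replicates 1 to 3 and for 39.2%, 13.2% and 31.2% in replicates 4 to 6. The inputs gave 0.719%, 0.798% and 0.526% in replicates 1 to 3 and 0.329%, 0.922% and 0.382% in replicates 4 to 6. No library of either kind overlapped the other kind, although eCLIP replicates 2 and 5 were well below the other 4. The mean difference over replicates 1 to 3 was 31.3 percentage points (31.9 ± 15.6% against 0.681 ± 0.140%, SD, n = 3, exact permutation p = 0.1), and all 6 against 6 gave an exact permutation p = 0.00216, the smallest possible, in which technical replicates are counted as if they were separate samples. With a wider window of 100 nt on either side of the 3′ splice site, the shares were 41 ± 13.9% in eCLIP and 7.99 ± 0.539% in input (n = 3, exact permutation p = 0.1). A peak placed by its midpoint can reach into the exon, and intron ends were not counted by any overlap. When every peak that touches a coding exon was placed there, the coding share difference (eCLIP minus input) rose from 3.71 to 35.1 points.

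A smaller group of eCLIP peaks lay at the other end of the intron, just downstream of the 5′ splice site. The first 20 nt of an intron held 6.12%, 8.96% and 11.9% of the peaks of eCLIP replicates 1 to 3, against 0.719%, 0.508% and 0.676% in their inputs. Here replicate 3 was the highest, whereas replicate 1 was the highest at the 3′ splice site. The means were 8.99 ± 2.89% and 0.634 ± 0.112% (n = 3, exact permutation p = 0.1), and technical replicates 4 to 6, at 4.07 to 8.02%, also lay above all 6 inputs. A second rise was seen 60 to 70 nt downstream of the 5′ splice site, with 4.83% of the peaks of eCLIP replicate 1 and 5.72% of replicate 4, 1.72 to 1.89% of the other eCLIP libraries and 0.225 to 1.38% of the inputs. When only as many of the strongest eCLIP peaks were kept as the own input has, the intron-end and intron-start differences shrank and the libraries overlapped. The 3′ difference became 7.06 points (exact permutation p = 0.400) and the 5′ difference 0.399 points (exact permutation p = 0.400).

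**Figure D2:**
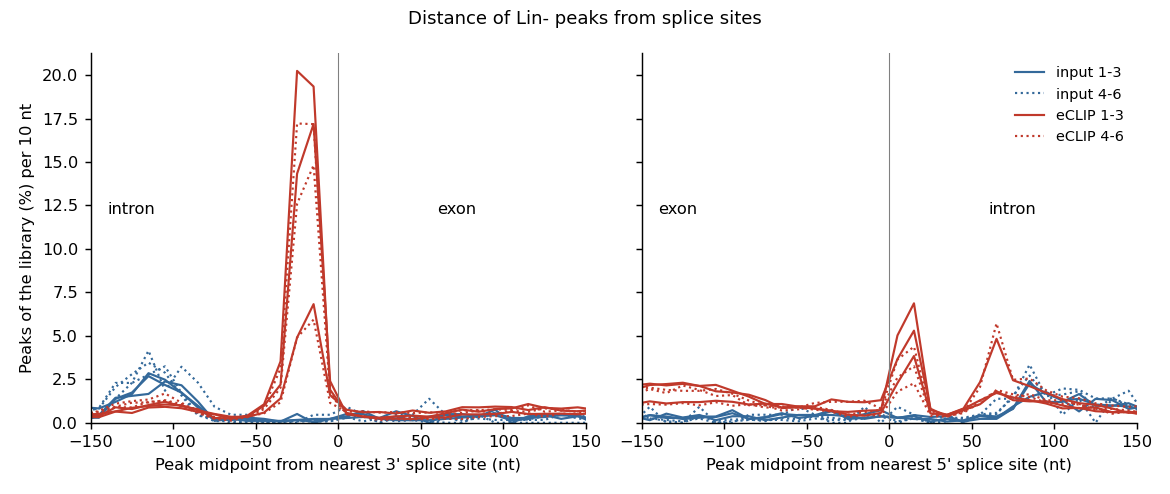
Share of the peaks of each Lin- library in bins of 10 nt, by distance of the peak midpoint from the nearest 3′ splice site on the left and 5′ splice site on the right. Red lines are eCLIP, blue lines input, solid replicates 1 to 3 and dotted replicates 4 to 6, and the eCLIP lines rise between 10 and 30 nt before the 3′ splice site and in the first 20 nt after the 5′ splice site, where input lines stay flat. A second rise lies 60 to 70 nt after the 5′ splice site in eCLIP replicates 1 and 4.

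The same intron ends were found again in different libraries. Replicates 1 to 3 had peaks at 6887 different intron ends in all, of which 539 carried a peak in each of the 3. Of these 539, 479 also had a peak in at least 1 technical replicate, 156 had it in all 3 technical replicates, and 1 had a peak in any of the 6 inputs. All 6 inputs together had peaks at 18 intron ends. Over the 19914 annotated intron ends of gained genes, 2.23% had a peak in each biological library. Brd2, a bromodomain reader of acetylated histones, had 5 such ends of 12 annotated. Actb had 4 of 5, Hnrnph1 4 of 14, Ewsr1 4 of 19, Ern1 4 of 21 and Txnip 4 of 8.

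Intron ends with a peak differed little in base composition from the others. In gained genes, the median share of C and T in the last 40 nt was 65% (quartiles 57.5 and 70%) for the 445 ends with a peak in each biological library and 62.5% (quartiles 57.5 and 67.5%) for the 16690 ends without one. Within the 348 gained genes that had both kinds, ends with a peak had the higher share in 202, the lower in 138 and an equal share in 8, with a median difference of 1.25 percentage points. The ends with a peak closed shorter introns, with a median of 510 nt against 1064 nt, and within genes the intron was shorter in 201 of the 348. These are descriptions over sites of the same transcripts, and no test was run.

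The CA-rich 6-mers did not separate eCLIP from input in all libraries. ACACAC or CACACA, which overlap each other, was searched on the strand of the peak and was found in 5.39%, 6.43% and 8.86% of the peaks of eCLIP replicates 1 to 3 and in 5.09%, 1.60% and 2.78% of their inputs. These 3 pairs did not overlap (6.89 ± 1.78% against 3.15 ± 1.78%, n = 3, exact permutation p = 0.1). Input 4, however, had the 6-mers in 16% of its peaks, above eCLIP replicates 4 to 6 with 7.37%, 9.20% and 11%, and all 6 against 6 gave an exact permutation p = 0.346. Input peaks were also shorter, with a median width of 15 to 17 nt in inputs 1 to 3 against 36 to 48 nt in their eCLIP libraries, and when a window of 50 nt on each side of the midpoint was searched in both, the shares were 8.91 ± 1.70% and 7.02 ± 2.27% (n = 3, exact permutation p = 0.300). The eCLIP peaks at intron ends held the 6-mers in 1.85 to 2.11% in replicates 1 to 3, and the other eCLIP peaks in 9.39 ± 2.93% (SD, n = 3). Of the 40-nt intron ends of gained genes, 1.57% of those with a peak in each biological library and 1.43% of those without a peak hold either 6-mer.

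The inputs had a larger share of peaks on small structured RNAs. A small RNA gene was overlapped by 20.9%, 22.2% and 14.4% of the peaks of eCLIP replicates 1 to 3 and by 32.5%, 31.5% and 40.2% of the peaks of their inputs. The values did not overlap (19.2 ± 4.23% against 34.7 ± 4.72%, n = 3, exact permutation p = 0.1), nor did those of all 6 against 6. Most were snoRNAs, which are mostly encoded in introns of host genes and guide the modification of ribosomal RNA. Their genes were overlapped by 12.8 ± 3.57% of eCLIP and 26.6 ± 3.38% of input peaks. The order turned among the strongest peaks. With as many of the smallest-p eCLIP peaks as the own input has, small RNA genes made up 59.9%, 71.4% and 48.9% in eCLIP replicates 1 to 3, and intron ends fell to 12.9%, 0.363% and 9.91%. The remaining eCLIP peaks, weaker by the CLIPper p, lay at intron ends in 53%, 16.7% and 40.2%.

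Shares of other parts of transcripts overlapped between eCLIP and input libraries. Introns held 60.1 ± 11.7% of eCLIP and 49.3 ± 3.49% of input peaks (n = 3, exact permutation p = 0.300), coding exons 10.1 ± 4.63% and 6.44 ± 0.919% (exact permutation p = 0.200) and 3′ UTRs 3.11 ± 1% and 2.13 ± 0.167% (exact permutation p = 0.200). Within pairs of eCLIP and own input, the coding and 3′ UTR differences were positive in all 3 (sign-flip exact p = 0.25 for each, the smallest possible), and over 6 pairs the sign-flip exact p was 0.0312 for coding exons and 0.5 for 3′ UTRs. Among replicates 1 to 3, eCLIP replicate 2 had the highest coding share, 15.4%, as had technical replicate 5, with 15.7%. Kmt2a and Aff1, the mouse genes of the fusion partners that the retrovirus carries, had 301 and 868 peaks in replicates 1 to 3 and took 4.21%, 3.79% and 3.48% of the peaks of these libraries. Without these genes the coding share was 2.66%, 12.1% and 4.98%, and its difference from input was 0.306 points (exact permutation p = 1). When a peak was placed by any overlap, coding exons first, the intron share differed by -20.6 points (eCLIP minus input) without overlap between libraries.

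Few eCLIP peaks coincided with a peak of their own input. In replicates 1 to 3, 15.9%, 13.2% and 10.1% of the eCLIP peaks overlapped an own input peak by at least 1 nt on the same strand, and 21.5%, 21.8% and 16% overlapped a peak of any of the 6 inputs. Seen from the input, 46.5%, 46.3% and 52.2% of the input peaks overlapped an eCLIP peak. Technical replicate 5, whose input had 217 peaks, overlapped it in 3.98%.

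Transcripts were then compared at matched RNA level. RNA level was the baseMean of the authors' Lin- RNA-seq table, a normalized count averaged over its wild-type and IGF2BP3-deleted libraries, which were made from poly(A)-selected RNA. In such bulk samples, fewer cells that express a gene and less of its RNA per cell cannot be told apart. A gene was called gained when each of eCLIP replicates 1 to 3 had at least 1 peak on it and none of the 6 inputs had any. Of 16673 genes with a baseMean of at least 10, 1451 were gained, which is 8.70%. Because eCLIP libraries had several times as many peaks as inputs, the gained call is easier to meet than its reverse. That reverse call, a peak in each of inputs 1 to 3 and in none of the 6 eCLIP libraries, was met by 80 genes, which is 0.480%. In all, 1952 tested genes had a peak in each biological eCLIP library, and 501 of them were left out because an input had a peak too. Of the gained genes, 967 had no more than 1 peak in at least 1 of the 3 libraries, 484 had 2 or more in each, and 61 had 5 or more in each. A peak in all 3 technical replicates as well was present for 623 gained genes, and 127 had none in any technical replicate.

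The gained share rose with RNA level. In the lowest baseMean decile (median 14.9), 18 of 1668 genes were gained (1.08%, 95% Wilson interval 0.684 to 1.70%). The fifth decile (median 411) had 29 gained genes (1.74%, 1.21 to 2.49%), the eighth (median 1720) had 167 (10%, 8.67 to 11.6%) and the highest (median 6287) had 691 of 1667 (41.5%, 39.1 to 43.8%). The 2 highest deciles together held 1045 gained genes, 72% of all. The reverse call went the other way, with 10 genes in the lowest and 2 in the highest decile. These intervals cover counting error only.

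The share of genes with a peak rose further with RNA level in eCLIP than in input in each of the 3 pairs. In the lowest decile, 2.70%, 4.98% and 3.60% of the genes had a peak in eCLIP replicates 1 to 3 and 2.64%, 2.58% and 2.10% in their inputs, so that the values lay close together. In the highest decile the shares were 70.8%, 72.2% and 74.8% in eCLIP and 12.1%, 8.82% and 8.82% in input. The ratio of the means was 1.54 in the lowest, 3.13 in the fifth, 10.4 in the ninth and 7.34 in the highest decile. eCLIP and input libraries did not overlap in 8 of the 10 deciles, and they overlapped in the second and the third (exact permutation p = 0.5 and 0.2). With the strongest peaks only, as many as the own input has, eCLIP covered fewer genes than input in each decile but the highest, where the ratio was 1.34, and 39 genes were gained. All 39 were among the 1451, which the rule fixes in advance, since the strongest peaks are a subset and the inputs were unchanged.

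**Figure D3:**
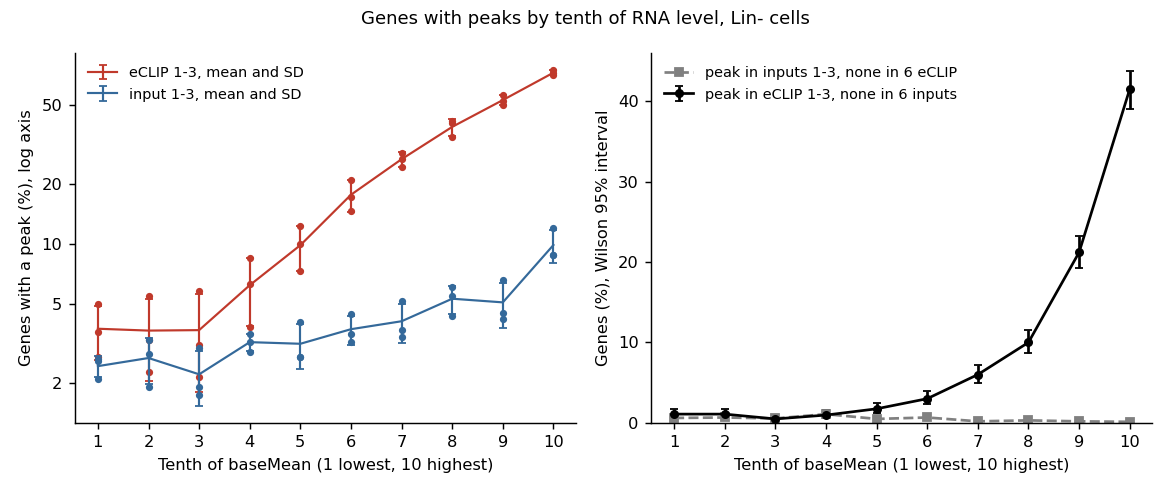
Genes with peaks by decile of baseMean, with the lowest decile at 1. On the left, the percent of genes with a peak in each of eCLIP replicates 1 to 3 (red) and inputs 1 to 3 (blue), with mean and SD, on a log axis, and on the right, the percent of genes gained (black, Wilson 95% interval) or meeting the reverse call (grey). The gained share reaches 41.5% in the highest decile and is 1.08% in the lowest.

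Gene length moved the gained share less than RNA level did. Among genes of the highest quintile of baseMean, 22.6% of the shortest quintile by gene length were gained, then 41.2%, 38.4%, 29.6% and 25.2% with rising length. Gained genes had the longer median gene length than the others in 4 of 10 deciles and more introns in 6 of 10. In the highest decile the median gained gene was 27025 nt long with 13 introns, and the median of the other genes 34204 nt with 12 introns. Gained genes were mostly protein-coding, 1417 of 1451. Of the 12616 protein-coding genes tested, 11.2% were gained, and of the 4057 others 0.838%, where their baseMean deciles give 1333 and 118 genes.

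Peaks on gained transcripts lay at intron ends more often than peaks on genes that also had an input peak, in each eCLIP library. These 2 groups differ in part by definition, since the gained rule leaves out every gene with an input peak. The inputs had the larger share of peaks on small RNA genes, so hosts of small RNAs tend to fall in the other group. Kmt2a and Aff1, whose eCLIP peaks were almost all in coding exons, fall there too. In replicates 1 to 3, 63.9%, 28.2% and 50.3% of the eCLIP peaks on gained genes were in the last 40 nt of an intron, against 18.6%, 5.43% and 19.2% of the eCLIP peaks on genes with an input peak, and the shares in replicates 4 to 6 were 68.5%, 28.2% and 48.2% against 12.9%, 4.09% and 14.9%. Small RNA genes took 3.15%, 4.08% and 2.05% of the peaks on gained genes and 36.3%, 37.2% and 23.5% on genes with an input peak. Eligible genes without a call, which lack input peaks and are not gained, had intron-end shares of 71.8%, 16% and 45.6%, so that the place of peaks set them apart from gained genes in no constant direction. Of the 1451 gained genes, 582 (40.1%) had a peak at an intron end in each of replicates 1 to 3 and 1198 (82.6%) in at least 1 of them, and 364 had a peak at the same intron end in all 3. For 3′ UTRs the counts were 51 (3.51%) and 200 (13.8%), and for coding exons 56 (3.86%) and 425 (29.3%).

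In each tertile of baseMean, the 6 gained genes with the largest minimum of peaks over replicates 1 to 3 are described. In the high tertile, these were Hnrnpu, Ddx5, Arid1a, Brd2, Ptbp1 and Actb. Hnrnpu, a nuclear matrix protein that binds pre-mRNA, had 13, 20, 12, 8, 14 and 7 peaks in eCLIP replicates 1 to 6. Of the 45 peaks in replicates 1 to 3, 17 were in the last 40 nt of an intron and 11 in coding exons. Ddx5, an RNA helicase, had 12, 14, 15, 7, 10 and 11 peaks, 17 of 41 at intron ends and 11 in the first 20 nt of an intron. Arid1a, a DNA-binding subunit of the SWI/SNF chromatin remodeler, had 16, 18, 11, 9, 13 and 3. Brd2 had 12, 16, 10, 9, 8 and 5, with 22 of 38 at intron ends, and Ptbp1, the polypyrimidine tract-binding repressor of exons, had 12, 10, 10, 8, 10 and 7, with 19 of 32. Actb, cytoplasmic beta-actin, had 9, 9, 12, 8, 5 and 8, with 15 of 30 at intron ends and none in the 3′ UTR. All 6 inputs were at 0 for these 6 genes.

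In the middle tertile, Mir17hg, the host of the miR-17-92 microRNA cluster, had the largest minimum over replicates 1 to 3, with 5, 9, 6, 3, 6 and 3 peaks. All 20 of its peaks in replicates 1 to 3 overlapped annotated small RNA genes. The 13 peaks of Rpl21, a ribosomal protein gene, did so too. Gapdh, a glycolytic enzyme, had 5, 6, 3, 4, 2 and 3 peaks, 10 of 14 at intron ends and the other 4 in the first 20 nt of an intron, although its baseMean in this table was 348. Cd69, a lectin receptor of activated leukocytes, had 5, 3, 4, 4, 2 and 2 peaks, 7 of 12 at intron ends and 5 in the first 20 nt of an intron. Hmgb1, a chromatin architectural protein, had 3, 3, 4, 2, 2 and 2, all intronic, 3 of 10 with a CA 6-mer and none at an intron end. H1f2, a linker histone, had 2, 17, 3, 1, 12 and 2, 20 of 22 in coding exons, and its counts were highest in replicates 2 and 5.

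In the low tertile, gained genes were few and several shared their place with other genes. Pabpn1, the nuclear poly(A)-binding protein, had 4, 6, 6, 4, 5 and 2 peaks at a baseMean of 16.9, and Gm20634 had 2, 12, 4, 2, 7 and 3 at 32.1. Both overlap another gene on the same strand, as does Evi2 (2, 2, 2, 1, 2 and 1), so that peaks and RNA level may not be counted on the same gene. Over all gained genes, 223 overlap another gene on the same strand, against 2251 of all tested genes. H3c1 (2, 9, 2, 1, 4 and 1) and H2ac20 (2, 4, 2, 0, 3 and 1) are replication-dependent histone genes, which have no introns. Atp6v0c-ps2 (2, 2, 2, 1, 2 and 2) is a processed pseudogene whose reads may be shared with its parent gene.

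**Figure D4:**
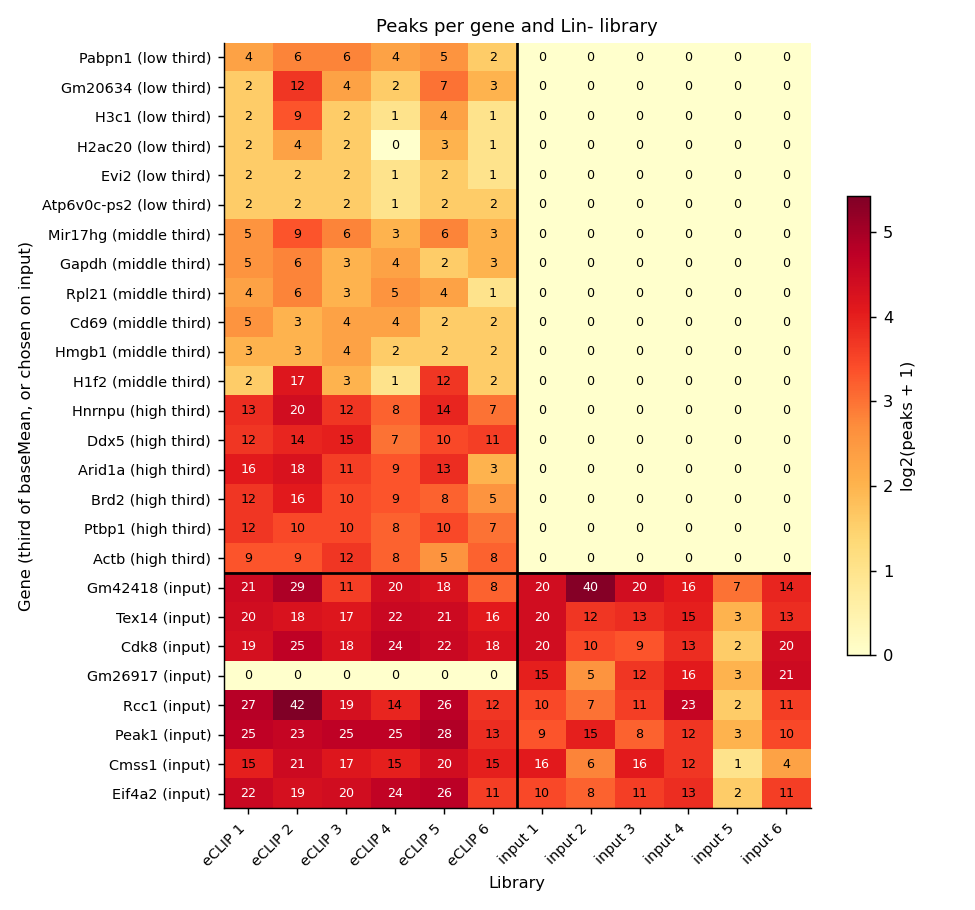
Number of peaks per gene (rows) in each Lin- library (columns), with the count written in each cell and the color on a log2(peaks + 1) scale. The upper block holds the 6 gained genes with the largest minimum of peaks over replicates 1 to 3 in each tertile of baseMean, which are at 0 in every input by the rule, and the lower block the 8 genes with the most input peaks, of which Gm26917 alone is at 0 in every eCLIP library.

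The genes with the most input peaks had eCLIP peaks as well, with 1 exception. Tex14, a germ cell kinase gene, had 20, 12, 13, 15, 3 and 13 peaks in inputs 1 to 6 and 20, 18, 17, 22, 21 and 16 in eCLIP, and all of its 76 input peaks overlapped a small RNA gene. So did all 64 input peaks of Rcc1 and all 55 of Eif4a2, a translation initiation helicase. Gm42418 had 20, 40, 20, 16, 7 and 14 input peaks and 21, 29, 11, 20, 18 and 8 in eCLIP. Its neighbor Gm26917, annotated as a lincRNA at chr17:39843013-39846341, had 15, 5, 12, 16, 3 and 21 input peaks and none in any eCLIP library. Gm26917 led the reverse call. The other reverse genes named by the rule, Rbms3, Zfp560, Filip1, Tbca, Serac1, Epb41l3 and Mrpl3, had 6 to 9 peaks summed over the 6 inputs. Of these, Mrpl3 had the highest baseMean, 1489.

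Counts of peaks on long nuclear RNAs varied widely between eCLIP libraries. Xist, the noncoding RNA of the inactive X chromosome, had 90, 0 and 40 peaks in eCLIP replicates 1 to 3 and 73, 104 and 29 in replicates 4 to 6. Neat1, the scaffold of paraspeckles, had 26, 0, 24, 14, 0 and 11, and Malat1, a nuclear speckle RNA, 21, 78, 21, 10, 36 and 15. Replicate 5 shared 75.3% of its peaks with replicate 2, the largest share of any technical with a biological replicate. These gave 104 and 0 peaks on Xist, and both gave 0 on Neat1. Read coverage was not analysed here, so whether these RNAs gave reads in replicate 2 was not tested. None of the 9 abundant nuclear lncRNAs in the list was gained, where the gained share of their baseMean deciles gives 2.36. With a CLIPper p below 0.001, 1 was gained, where the deciles give 1.24. An input peak was present on 4 of the 9, against 7.82% of all tested genes.

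Gene lists were read against the 8.70% of all tested genes that were gained and against the number that the gained share of each member's own baseMean decile gives. Over all tested genes, 1303 (7.82%) had a peak in any input, the background for the input counts given with the lists. That share was 4.74% in the lowest and 17.8% in the highest decile. Of the 41 splicing factors and hnRNPs, which bind pre-mRNA and set exon choice, 31 were gained (75.6%), where their deciles give 16.4. The highest decile spans a baseMean of 3808 to 113881 with a median of 6287. The medians of this list (8837) and of the ribosomal proteins (9961) lie above that median, so the deciles match these lists incompletely. Ptbp1, Hnrnpu and Ddx5 are described above, and Hnrnpa2b1 had 10, 9 and 10 peaks in replicates 1 to 3. Another 7 members had an input peak, and 38 of the 41 had a peak in each biological library. Histone methyltransferases and demethylases had 19 of 28 members gained (67.9%, deciles 9.43). Kmt2d, an H3K4 methyltransferase, had 10, 9 and 6 peaks, Ehmt2, an H3K9 methyltransferase, 3, 3 and 4, Kdm6b, an H3K27 demethylase, 4, 3 and 3, and Ezh2, the H3K27 methyltransferase of Polycomb, 3, 3 and 3. Cytoplasmic ribosomal proteins had 38 of 78 gained (48.7%, deciles 28.7), among them Rps3 (18, 14 and 5), Rpl10a (5, 7 and 5) and Rps18 (5, 6 and 4), and 26 members had an input peak.

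Replication-dependent histones had 19 of 39 tested members gained (48.7%), where their deciles give 0.584. By the minimum over replicates 1 to 3, H1f2, H3c1, H2ac20 and H2bc6 (2, 3 and 2) came first, and H1f3, with 1, 14 and 5 peaks, had more in sum than the last 3 of them. The mRNAs of these genes carry no poly(A) tail, and the RNA-seq that gave baseMean was poly(A)-selected, so that the deciles may not hold their RNA level (median baseMean of the members 36.9). The inputs, which were not selected in this way, had a peak on 2 of the 39, close to the 7.82% of all tested genes. The part of the selection in the count was not tested.

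Lists of leukemia and signaling genes had gained counts that were near those of their deciles or above them by a few genes, and no list was tested. MLL fusion target genes had 8 of 23 gained (34.8%, deciles 5.63), with Lmo2 at 6, 8 and 4, Hoxa9 at 4, 6 and 4, Myb at 6, 3 and 8 and Myc at 3, 5 and 4 peaks, all of them transcription regulators of progenitors, and 8 members had an input peak. SWI/SNF subunits had 7 of 21 (deciles 5.61), after Arid1a led by Arid2 (4, 2 and 5), Smarcc2 (3, 1 and 5) and Smarca4 (4, 1 and 4). PI3K, AKT and Ras signaling had 11 of 31 (deciles 6.88), led by Pdpk1 (6, 5 and 7), Pik3r1 (4, 3 and 5), Rasgrp2 (4, 2 and 5) and Sos2 (2, 5 and 2). m6A writers, erasers and readers had 5 of 17 (deciles 3.17), among them Ythdc1, Ythdf2 and Zc3h13. MLL fusion partners and elongation factors had 6 of 21 (deciles 5.31), with Cdk9 at 3, 5 and 2, and hematopoietic growth factor receptors 4 of 16 (deciles 3.61), with Kit, Flt3, Il6ra and Il3ra. The last 2 lists fell below their deciles with a CLIPper p below 0.001 and with a peak required in all 6 eCLIP libraries.

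The remaining lists had gained counts near or below those of their deciles. Translation initiation and elongation factors had 12 of 63 (deciles 15.3), with Eef1a1 at 8, 20 and 9 peaks, and oxidative phosphorylation subunits had 11 of 96 (deciles 9.79), close to their deciles. Of 8 primary granule proteins of progenitors, Mpo, myeloperoxidase, was gained with 11, 2 and 5 peaks (deciles 2.53). Notch receptors and effectors had 3 of 15 (Notch1, Notch2 and Rbpj, deciles 2.48) and DOCK exchange factors 2 of 11 (Dock10 and Dock11, deciles 1.96). RNA targets described for IGF2BP proteins had 3 of 13 gained (deciles 3.16), among them Actb and Myc, and 3 others, Cdk6, Bcl2 and Cd44, had an input peak. The described RNA targets crossed to the other side of their deciles under all 3 alternatives, with 3 gained members against 2.49 when gene length was matched too, 2 against 1.83 with a CLIPper p below 0.001 and 2 against 1.70 with a peak in all 6 eCLIP libraries. The oxidative phosphorylation, Notch, DOCK, snoRNA host gene and IGF2BP family lists crossed under at least 1 alternative. Of the 14 snoRNA host genes tested, 9 had an input peak and none was gained (deciles 0.765), while with a CLIPper p below 0.001 1 was gained (deciles 0.380). None of the 20 mitochondrially encoded genes had a peak in an eCLIP library or input, and no library listed a peak on the mitochondrial chromosome. The IGF2BP family had 2 tested members, neither gained, and Igf2bp3 itself had 1, 2 and 2 peaks in replicates 1 to 3 and 1 peak in input 4.

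**Figure D5:**
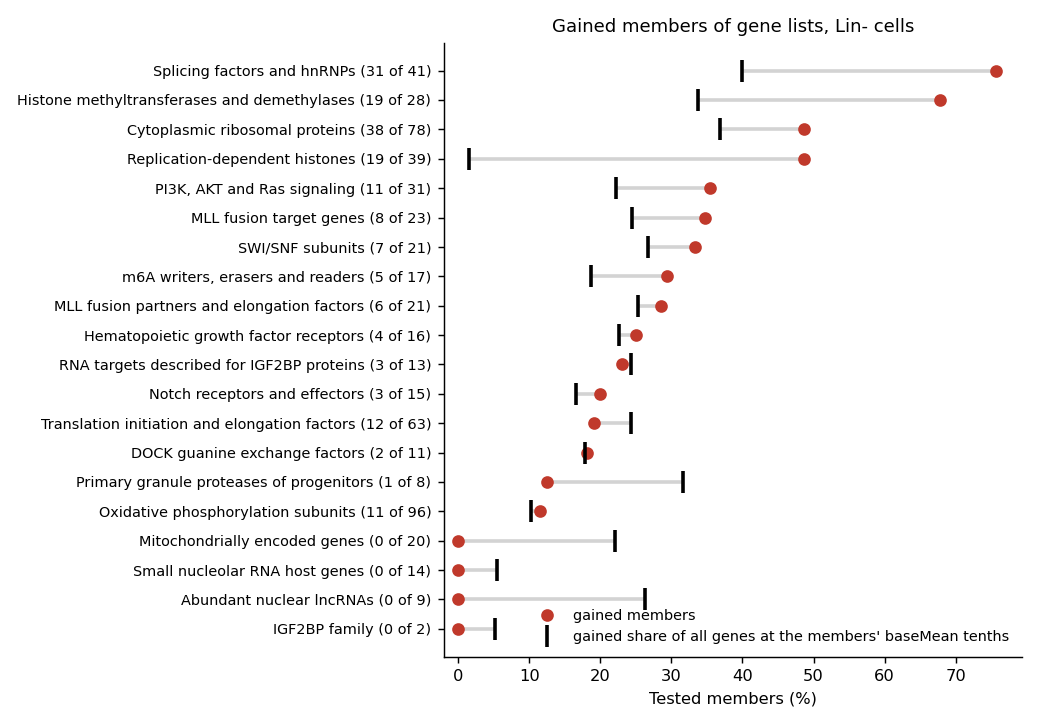
Percent of the tested members of each gene list that were gained (red points, counts beside the names) and the percent that the gained share of the members' own baseMean deciles gives (black bars). Splicing factors, histone methyltransferases and demethylases and replication-dependent histones lie farthest to the right of their bars.

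Transcripts that the study examined fell into different classes. Hoxa9 was gained with 4, 6, 4, 2, 4 and 3 eCLIP peaks, of which 6 of 14 in replicates 1 to 3 had their midpoint in the last 40 nt of an intron. By place, 6 of the 14 lay in coding exons, 4 in non-coding exons, 3 in introns and 1 in a 5′ UTR, so that some intron ends are exonic in another transcript, and 4 overlapped a small RNA gene. Hoxa7 had 0, 1, 1, 0, 0 and 1 and Hoxa10 0, 1, 0, 0, 0 and 0, and neither was gained, nor was Csf2rb, the common beta chain of cytokine receptors, with 0, 1, 2, 0, 1 and 2. Cd69, Myc and Notch1 (4, 6, 3, 3, 5 and 0) were gained. Cdk6, a cell cycle kinase, had 10, 9, 15, 12, 12 and 13 eCLIP peaks but also 5, 1, 2, 7, 0 and 3 input peaks, all intronic in replicates 1 to 3 of eCLIP. Of its 89 peaks in all 12 libraries, 88 held a CA 6-mer, including all 18 input peaks.

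The label of the cells was checked against markers in the RNA-seq table. All 9 progenitor markers had a baseMean of at least 2452 (Mpo highest at 101212). Defining T cell (Cd3g, Cd3d, Cd8a), B cell (Ms4a1, Cd79a) and erythroid (Alas2, Hba-a1) transcripts were below 10, while Il7r (1155), Cd79b (397) and Hbb-bt (181) were the highest members of the same lists. The median was 187 for mature neutrophil markers (9 of 9 at 10 or more), 394 for monocyte and macrophage markers (7 of 9, Csf1r highest at 7910), 6.54 for T cell (3 of 7), 8.89 for B cell (4 of 8) and 44.6 for erythroid markers (5 of 8).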

How the data were processed

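The authors trimmed, repeat-filtered, mapped to mm10 and deduplicated the eCLIP and input reads and called peaks per library with CLIPper (p below 0.05). The tools named in the submitters' processing notes are STAR 2.5.3a, Bowtie2 and DESeq2, with no role given. Each deposited peak list holds a value of 0 to 0.05 in an unnamed column, read as the CLIPper p-value. The headers name different deduplication and peak calling settings for eCLIP and inputs. Of the deposited Lin- comparison table, the baseMean of 26560 genes was used, a normalized count averaged by the authors over the compared genotypes, while the authors' log2 fold changes and p-values of knockout over wild type were not used. No other per-library columns were left unused (0).

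Peaks were placed by midpoint in GENCODE M21 (basic set) on the peak's strand, with coding exon, 3′ UTR, 5′ UTR, non-coding exon and intron in this order. Coordinates are mm10, counted from 1. Gene IDs in peak names were joined to the table, and 1677 gene IDs were gained in all, 51 with a baseMean below 10 and 175 not in the table. Libraries 1 to 3 were compared by two-sided exact permutation. For a measure per library, a call means no overlap between eCLIP and input libraries. Genes were called by the gained and reverse rules given above. Python 3.11.15, pandas 2.3.3, NumPy 2.4.6, SciPy 1.17.1, bedtools 2.31.1 and matplotlib 3.10.9 were used. On simulated peaks for 16673 genes, 200 genes were given peaks in every eCLIP library and none in any input, and all 200 were recovered. Such genes meet the gained rule by construction, so this checks the code only. The other genes were drawn at the input rate in both assays, and 3 of them were called. Real eCLIP libraries had more peaks than inputs, so this gives no rate of false calls for these data.

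eCLIP and input of the same number come from the same sample, so they form pairs. Their deviations from the assay means over genes were not correlated (-0.0027 to -0.0050). The genes named are, in each tertile of baseMean, the 6 gained genes with the largest minimum of peaks over replicates 1 to 3, the 8 genes with peaks in most inputs, up to 8 genes of the reverse call, up to 4 gained members of each list and genes the study discusses. A few of them are not reported here. Xist, Neat1, Malat1, Ern1, Ewsr1, Txnip, Hnrnph1 and the markers were named after their values were seen. Members, lists and tests were chosen with earlier results of these data known. The window of 40 nt at intron ends, that of 20 nt at intron starts and the small RNA share were added after the peaks were seen.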

Additional observations from a re-analysis of the deposited data

Results flagged for a closer look

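In 24 groups of 6 libraries, each of 12 measures in eCLIP or input, 1 value stood apart from the other 5 by Dixon's criterion, which chance alone gives for about 1 group in 20. Input 4 had ACACAC or CACACA in 16% of its peaks, where the other 5 inputs had 1.60 to 6.49%. Its 195 peaks with a 6-mer lay on 142 genes, with Cdk6 first at 7 peaks.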

How the results depend on the processing

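Of 134 alternatives for 16 results, 96 left direction and call as they were. The choice that mattered most was the number of eCLIP peaks. With only the strongest peaks, as many as the own input has, genes with a peak (-477), the intron share (-27.1 points), the 3′ UTR share (-1.06 points) and the small RNA share (25.3 points) turned direction, and the 6-mer share (0.218 points), peak width (9 nt), intron-end share (7.06 points) and intron-start share (0.399 points) lost their call. Gained genes then numbered 39 and the gap between the highest and lowest baseMean decile was 1.5 points. The smallest-p peaks lie mainly on small RNA genes, so that this choice also changes which RNAs are compared. A CLIPper p below 0.001 left 684 gained genes, a gap of 24.5 points and a coding share difference of 5.84 points, now without overlap. A peak in all 6 eCLIP libraries left 623 gained genes, in 2 of 3 gave 2950, and peak names ending in 10 or more, read as reads per peak, left 390. With 20 baseMean groups the gap was 46.9 points.

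Technical replicates 4 to 6 reversed the 3′ UTR difference (-0.227 points), put coding exons without overlap (5.76 points) and ended the call for 6-mers (1.05 points) and width (15 nt). All 6 against 6 ended it for the same measures (2.39 points and 21.2 nt). A 6-mer window of 50 nt gave 1.90 points, and 1.42 points without small RNA genes. Any overlap in place of the midpoint reversed the intron share (-20.6 points) and raised the coding share difference to 35.1 points. Overlap with any Lin- input was 19.7%. Leaving out each biological replicate gave 4.79 to 18 points for introns (18 without replicate 2), 1.59 to 5.26 for coding exons, 0.384 to 1.38 for 3′ UTRs and 44.2 to 47.5 for the decile gap. It gave 24.8 to 39.9 points for intron ends (39.9 without replicate 2) and 1847 to 2088 gained genes. The cause of these changes was not tested.

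The replicate block, pairing each eCLIP library with its own input, gave differences of one sign for coding exons (3.71 points, sign-flip p = 0.25, the smallest possible) and 3′ UTRs (0.972 points, p = 0.25, exact), which did not separate without it, and it changed no other call. More peaks than the own input in each pair were found on 1776 genes. Without input 5 the gained count stayed at 1451, and without genes that overlap on the same strand it was 1228, both chosen after seeing the data, as were the intron-end, intron-start and small RNA measures and the limit of 10 on peak names. Depth per library is unknown, and absence of a peak does not show absence of binding.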
